A study of Homo sapiens with 15 samples.

Results

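Caco-2, a line of human colon carcinoma epithelium kept here undifferentiated, was compared between medium alone and fluid from a colon simulator to which no polydextrose had been fed (0% fluid). The simulator ran for 48 h through 4 connected glass vessels in the order of the gut: vessel 1 is modelled on the ascending, vessel 2 on the transverse and vessel 3 on the descending colon, and vessel 4 on the sigmoid colon with the rectum. Its fluid was cleared of bacteria by centrifugation and put on the cells for 24 h at 10% by volume in serum-free DMEM, and each vessel gave 1 array. The medium group is 1 array of cells without fluid, so the comparison had 5 arrays, and the series holds 10 more: 1% and 2% polydextrose fluids from the same 4 vessel positions, 100 mM NaCl and 5 mM butyrate, each single.

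A gene was a member when its brighter side reached log2 6 and it had a difference of at least 1 (2-fold) between the mean of the 4 arrays of 0% fluid and the medium array, and with the same sign in all 4 vessels. Of 19775 genes on the array 7820 were bright enough to be compared, and 983 of them (12.6%) were members: 608 were higher with fluid (7.77% of the genes compared) and 375 were lower (4.8%). The rule used the values of these 5 arrays, so the counts and differences between fluid and medium given below are a description with no test, and an error is the SD over the 4 vessels. The 4 fluids came from connected vessels of a single simulation and medium was read once, so the spread of the medium value is unknown.

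Gut bacteria turn carbohydrate into short-chain fatty acids, and protein and tryptophan into further small acids, amines and indoles. Butyrate is a fuel of colon cells and an inhibitor of histone deacetylases, the enzymes that take acetyl groups off histones, and it is known to slow the division of colon cancer cells. Indoles and other aromatic molecules can bind the aryl hydrocarbon receptor, which switches on enzymes that clear foreign compounds. The composition of the fluids was not analysed here.

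On the arrays EPCAM, CDH1, CDH17, KRT8, KRT18 and KRT19, which mark intestinal or simple epithelium, were at log2 5 or more in all 5 arrays. The villus protein VIL1 (2.06 to 2.79) and the intestinal transcription factors CDX1 (2.61 to 2.77) and CDX2 (4.13 to 4.95), which are often used to recognise the line, were under log2 5 in all 5. All 8 leukocyte markers and 8 of 9 fibroblast markers were under log2 5 too, and the exception was the collagen COL1A1, at 1.37 in medium and 6.64, 6.86, 6.74 and 6.35 with fluid from vessels 1 to 4. The summed level of the fibroblast list was 5.27 in medium and 6.91 to 7.25 with fluid (log2), that of the leukocyte list 5.30 and 5.43 to 5.52. The share of genes at log2 5 or more was 42.3% in medium and 43.0% to 43.5% with fluid. The gap between the 3′ and 5′ probe sets of ACTB, which grows as RNA degrades, was 0.95 in medium and 0.73, 0.60, 0.64 and 0.58 with fluid. The same gap of GAPDH was -0.11 in medium and -0.06, -0.11, -0.10 and -0.10 with fluid, so that medium did not stand apart in it. The part of RNA quality in the results was not tested.

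Higher members outnumbered lower ones and reached further from medium. The median difference was 1.44 (2.72-fold) among higher members and -1.26 (2.40-fold) among lower ones. Among the higher members 164 differed at least 4-fold and 47 at least 8-fold, against 31 and 5 among the lower members. In all 4 vessels singly the difference was at least 1 in 401 of the 608 and in 136 of the 375. The SD over the 4 fluid arrays had a median of 0.22 in higher and 0.30 in lower members. Where medium, or all 4 arrays of fluid, lay under log2 5, the limit below which array values have little meaning, a bound is printed in place of the difference, with that side set to 5. This applied to 142 higher and 17 lower members. The medians and fold counts above were taken without bounds, so low values enter them, more often among the higher members. COL1A1, for one, differed by 5.28 without a bound and by at least 1.65 with it. Among members with all 5 arrays at log2 5 or more, the 12 largest rises were 2.89 to 5.09 and the 12 largest falls -1.92 to -2.90.

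**Figure D1:**
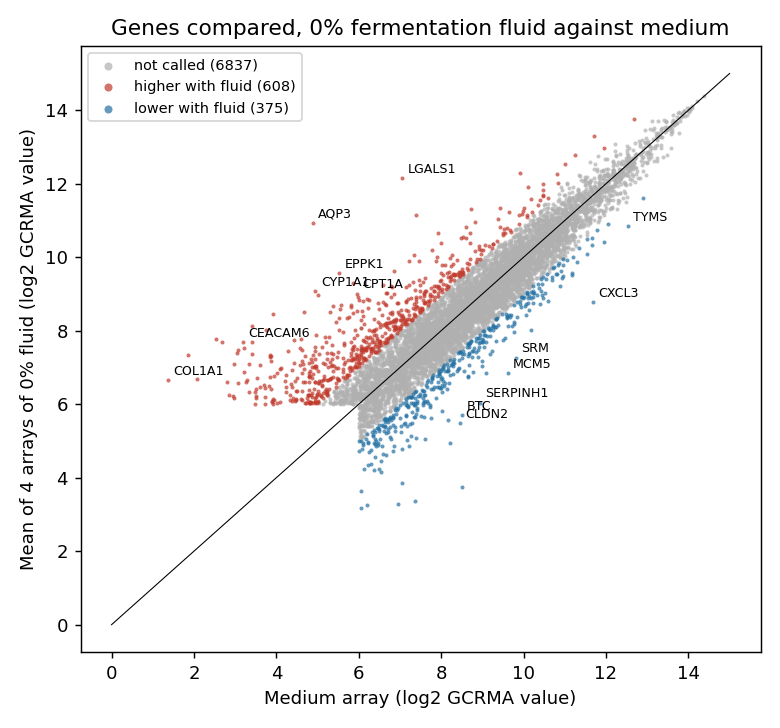
Each point is 1 of 7820 genes, with its log2 value on the medium array on the horizontal axis and the mean of the 4 arrays of 0% fluid on the vertical axis; the line marks equal values. The 608 higher members (red) lie above the line and reach farther from it than the 375 lower members (blue), with values drawn without bounds.

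Just inside the threshold stood the scaffold protein NHERF1, with a difference of 1.000, and the mitotic kinase AURKB, with -1.001. Just outside stood the tetraspanin TSPAN5, with 0.9987, and the mitochondrial helicase SUPV3L1, with -0.9987. A further 3 genes passed 1 on the mean but did not have the same sign in all 4 vessels, and were named after their values were seen. These were TXNIP, an inhibitor of thioredoxin and of glucose uptake, FBXO42, a subunit of a ubiquitin ligase, and RGS3, a regulator of G protein signalling. TXNIP was at 6.05 in medium, 5.35 in vessel 1 and 8.37, 9.35 and 9.19 in vessels 2 to 4. Vessel 1 was the array below medium in all 3.

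Farthest above medium among members with all 5 arrays at log2 5 or more was LGALS1, galectin-1, a secreted lectin that binds sugars of the cell surface. LGALS1 was at 7.06 in medium and at 11.75, 12.32, 12.33 and 12.21 in vessels 1 to 4 (12.15 ± 0.27, SD, n = 4), a difference of 5.09 or 34.2-fold. The 4 fluid arrays lay close together and far above medium. EPPK1, a plakin that ties keratin filaments, was at 5.52 in medium and at 9.20, 9.90, 9.68 and 9.49 with fluid (4.05). TUBA1A, an alpha-tubulin, was at 7.40 and at 10.74, 11.48, 11.47 and 10.88 (3.74). PAG1, a membrane adaptor of Src kinases (3.28), TMEM139, a membrane protein (3.19), and VAT1, a vesicle membrane protein (2.89), followed with SDs of 0.20 to 0.28.

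AQP3, a channel of the epithelial membrane for water and glycerol, was farthest from medium of all members. It was at 4.88 in medium and at 10.43, 11.29, 11.25 and 10.80 with fluid, a bound of at least 5.94 (61.5-fold). CEACAM6, an adhesion molecule of intestinal epithelium, was at 3.18 in medium and at 7.54, 8.0, 7.62 and 7.59 with fluid, a bound of at least 2.68. CLIC3, an intracellular chloride channel protein (at least 3.46), CDA, cytidine deaminase (at least 3.12), SCIN, an actin-severing protein (at least 3.02), and KLC3, a kinesin light chain (at least 2.78), also had medium under log2 5. No array of fluid overlapped medium in any of these genes, which the rule requires of every member. AQP3 was also high with NaCl, at 10.52, within the range of the 4 fluids, and SCIN was at 9.52 with NaCl, above all 4.

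**Figure D2:**
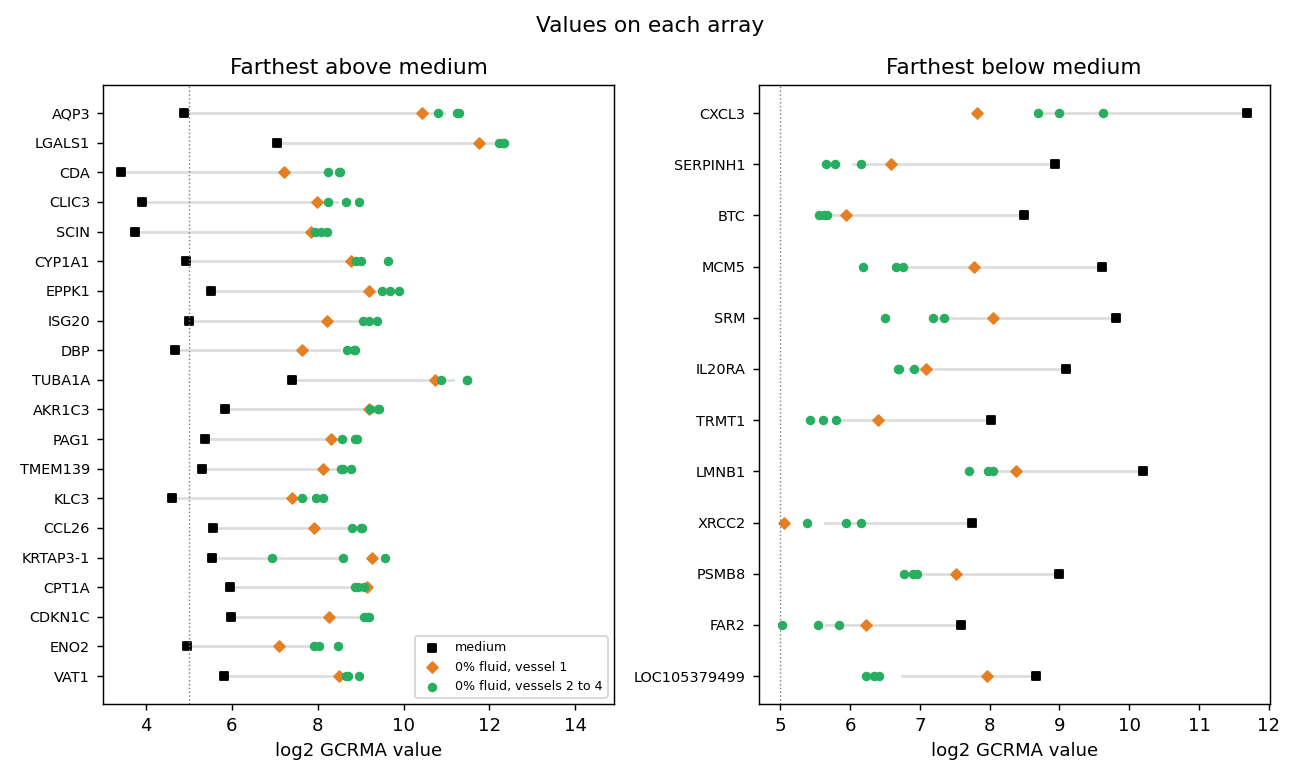
Log2 values of the 12 members farthest above medium (left) and the 12 farthest below it (right) among those with all 5 arrays at log2 5 or more, with the 8 largest bounds also on the left, 1 row a gene, with medium as a black square, vessel 1 of 0% fluid as an orange diamond and vessels 2 to 4 as green circles. The dotted line marks log2 5; vessel 1 is the fluid array nearest to medium in all rows but those of CXCL3, XRCC2, KRTAP3-1 and CPT1A.

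Genes that copy DNA were the group most often lower. Of 33 genes of DNA replication and nucleotide supply compared, 22 were lower with fluid, 0 were higher and 11 were not called, and all 33 differences were below 0 (median -1.16, against -0.01 over all genes compared). MCM5, a subunit of the helicase that opens DNA at replication forks, was at 9.62 in medium and at 7.78, 6.66, 6.75 and 6.19 in vessels 1 to 4 (6.84 ± 0.67, SD, n = 4), a difference of -2.77. Its helicase partners MCM4 (-1.80), MCM2 (-1.67), MCM7 (-1.66), MCM6 (-1.61) and MCM3 (-1.35) were lower as well, so that all 6 subunits were members. CDC45, which activates that helicase, was at 7.39 in medium and 5.23, 4.87, 5.09 and 5.08 with fluid (-2.32). TYMS, thymidylate synthase, was at 12.53 and at 11.54, 10.53, 10.67 and 10.64 (-1.69), and the S-phase cyclin CCNE2 at 9.22 and 7.96, 7.17, 7.30 and 7.31 (-1.79). Medium lay above every fluid array in each of these genes, which the rule requires of lower members. The clamp PCNA (-0.98) and the ribonucleotide reductase subunits RRM1 (-0.79) and RRM2 (-0.16) were not called. On the NaCl array the median of the list was -1.13 from the same medium array, and with NaCl in place of medium the list's median under 0% fluid was -0.17.

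E2F proteins are transcription factors known to drive genes of DNA synthesis. In RefSeq promoter windows (GRCh38.p14, 250 bases before to 50 after the start, the first listed window of each gene) the letters TTTNGCGC on either strand, an E2F-type motif that can share letters with the GCGTG motif below, were found in 28 of 308 lower members with a window (9.09%), in 5 of 500 higher members (1%), in 3.29% of 6601 genes compared and in 1.83% of all 27305 genes of the table. They were found in 9 of the 18 called replication genes with a window (MCM2, MCM3, MCM6, MCM7, CDC6, GINS1, POLA1, POLA2 and POLE2) and in 0 of 6 mitosis genes. A match is a description of the letters and shows no binding. The 250 bases before the start are shown for MCM6 (chr2:135876444-135876693, minus strand) and MCM7 (chr7:100101398-100101647, minus strand), chosen after their values were seen as helicase subunits with matches before the start, with matches in capitals.
MCM6: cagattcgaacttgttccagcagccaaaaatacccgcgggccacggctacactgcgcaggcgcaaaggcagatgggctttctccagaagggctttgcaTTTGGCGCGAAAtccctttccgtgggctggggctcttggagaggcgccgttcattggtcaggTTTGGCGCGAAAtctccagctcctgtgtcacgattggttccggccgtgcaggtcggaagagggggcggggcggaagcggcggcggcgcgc
MCM7: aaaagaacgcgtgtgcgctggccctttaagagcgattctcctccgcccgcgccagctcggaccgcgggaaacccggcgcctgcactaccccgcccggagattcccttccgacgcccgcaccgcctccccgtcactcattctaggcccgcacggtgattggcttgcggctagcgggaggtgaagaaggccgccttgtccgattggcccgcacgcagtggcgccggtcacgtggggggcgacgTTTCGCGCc
MCM6 holds 4 matches as overlapping pairs on opposite strands, from -152 to -141 and from -90 to -79, and MCM7 holds 1 from -9 to -2, where -1 is the base before the start. MCM6 was at 11.18 in medium and at 10.14, 9.44, 9.58 and 9.15 with fluid, and MCM7 at 10.40 and 9.16, 8.63, 8.70 and 8.47. In both genes vessel 1 was nearest to medium. The arrays read RNA of whole cultures, so fewer dividing cells and less of these RNAs per cell cannot be told apart.

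Mitosis genes were lower by less. Of 34 compared, 8 were lower, 0 were higher and 26 were not called, with all 34 below 0 and a median of -0.71. On the NaCl array the median of the list was -0.51 from the same medium array, and with NaCl in place of medium it was -0.13 under 0% fluid. PLK1, a kinase needed to enter mitosis, was at 7.36 in medium and at 6.29, 5.20, 5.68 and 5.48 with fluid (-1.69). CCNA2, the cyclin of S phase and early mitosis, was at 10.45 and at 9.57, 8.60, 8.83 and 8.86 (-1.49), and BIRC5, survivin, at 9.68 and 9.21, 8.21, 8.29 and 7.97 (-1.26). The kinetochore motor CENPE (-1.62) and CDCA8, of the complex that holds survivin (-1.19), completed the largest 5. No fluid array reached medium in these genes, which the rule requires, and vessel 1 was the nearest in each.

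Genes for making ribosomes stood below medium too. Of 16 compared 8 were lower and 0 higher, all 16 were below 0, and the median was -0.98. The NaCl array lay at a median of -0.48 from medium, and with NaCl in place of medium the median under 0% fluid was -0.51. NOP16, a nucleolar protein, was at 9.77 in medium and at 8.80, 8.23, 8.01 and 7.89 with fluid (-1.54). RRP12, which helps export ribosomal subunits, differed by -1.79, and POLR1A, the large subunit of RNA polymerase I, by -1.46, with 3 of its 4 fluid arrays under log2 5. UTP20, a processing factor of ribosomal RNA, was at 6.53 in medium and under 5 in all 4 fluids, a difference of -1.53 or below. SRM, the spermidine synthase, was at 9.82 and at 8.04, 7.19, 7.34 and 6.50 (-2.55). By contrast SAT1, which starts the breakdown of polyamines, was at 11.70 and at 12.99, 13.41, 13.39 and 13.45 (1.61), and the polyamine oxidase SMOX was higher by 1.23. MYC, a transcription factor that promotes growth, was not called at -0.68, and neither was the G1 cyclin CCND1 at -0.16.

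Inhibitors of the cell cycle were among the higher members. Of 15 p53 target and growth arrest genes 5 were higher and 0 lower (median 0.70). CDKN1C, the inhibitor p57, was at 5.99 in medium and at 8.27, 9.19, 9.18 and 9.08 with fluid (2.94). CDKN2B, the inhibitor p15, was at 5.35 and at 7.13, 7.62, 7.56 and 8.13 (2.26). CDKN1A, the inhibitor p21, was at 8.92 and at 9.84, 10.37, 10.35 and 10.30 (1.29). The fluid arrays lay above medium throughout, which the rule requires. CDKN1C was also at 9.45 with NaCl, above all 4 fluids, while CDKN2B (4.55) and CDKN1A (7.79) were below medium there.

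Histone genes and genes known to respond to deacetylase inhibitors stood on the higher side. Of 9 histone genes compared 5 were higher and 0 lower (median 1.75), and of 12 genes of the inhibitor list 7 were higher and 0 lower, with all 12 above 0 (median 1.14). H1-2, a linker histone, was at 9.43 in medium and at 10.69, 11.60, 11.41 and 11.67 with fluid (1.92). H2BC5 was at 8.54 and at 10.12, 10.75, 10.62 and 10.71 (2.01), and H4C8 was at 3.40 and at 5.74, 8.13, 7.37 and 8.20 (at least 2.36). Histone genes are near-identical copies, so a probe set may read more than its own gene. On the NaCl array H2BC5 (10.80) and H1-2 (11.38) were as high as with fluid, and with NaCl in place of medium the median of the histone list was -0.01. For the inhibitor list the NaCl array lay at a median of -0.02 from medium. Its member TUBA1A is described above, and MAP1LC3B, an autophagy protein, was higher by 1.16.

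**Figure D3:**
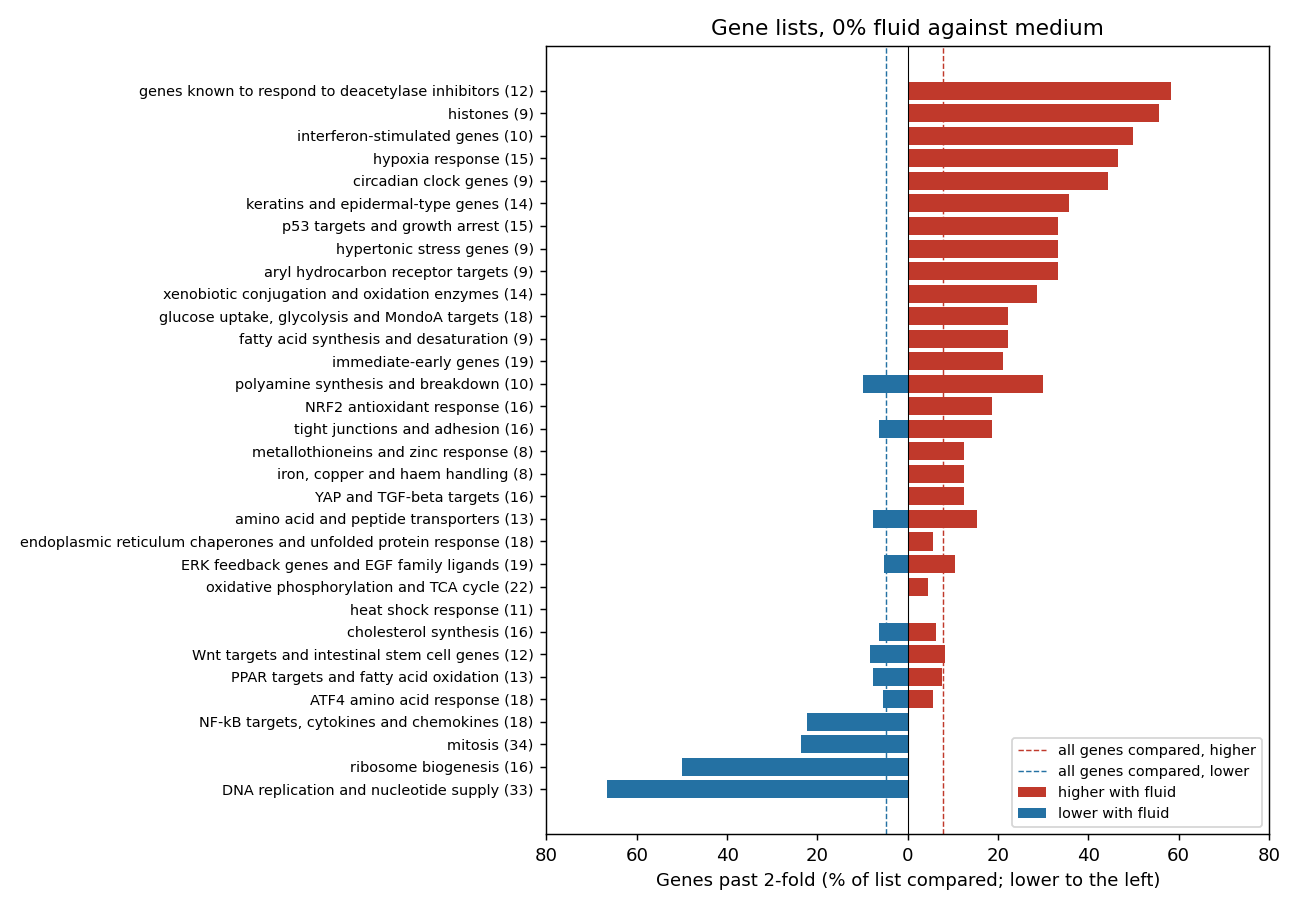
For each gene list with at least 8 genes compared (their number in brackets), bars show the percentage of its genes that were higher (red, to the right) or lower (blue, to the left) by at least 2-fold with 0% fluid than in medium; dashed lines mark 7.77% and 4.8%, the shares over all genes compared. DNA replication is lowest, with 22 of 33 genes lower, and the genes known to respond to deacetylase inhibitors are highest, with 7 of 12.

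Targets of the aryl hydrocarbon receptor held 1 of the farthest members. Of 9 compared 3 were higher and 0 lower (median 0.57). CYP1A1, the enzyme that oxidises aromatic compounds and the classical target of the receptor, was at 4.95 in medium and at 8.78, 8.90, 9.00 and 9.64 with fluid, a bound of at least 4.08 (16.9-fold). CYP1B1, a related enzyme, was at 8.70 and at 10.04, 10.54, 10.40 and 10.58 (1.69), and TIPARP, a feedback enzyme of the receptor, at 9.43 and at 10.46, 10.87, 10.85 and 11.10 (1.39). These 3 were higher in each 0% fluid than with butyrate, where CYP1A1 was at 6.60, CYP1B1 at 9.89 and TIPARP at 10.12. NaCl gave 7.51, 10.16 and 9.45. The receptor AHR itself was not called (0.32). The letters GCGTG, the core that the receptor is known to bind, searched on both strands, are common: 46.4% of higher members, 59.4% of lower members and 52.9% of the genes compared held them. The 250 bases before the start of CYP1A1 (chr15:74725529-74725778, minus strand, RefSeq, GRCh38.p14) are shown because the gene had the largest bound of the list, with its only match, from -57 to -53, in capitals.
CYP1A1: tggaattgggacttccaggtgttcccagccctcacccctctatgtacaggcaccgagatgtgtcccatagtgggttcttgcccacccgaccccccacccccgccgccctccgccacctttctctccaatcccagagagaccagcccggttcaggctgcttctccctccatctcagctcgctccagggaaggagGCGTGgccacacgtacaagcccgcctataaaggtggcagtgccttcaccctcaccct
Of 14 further enzymes that conjugate or oxidise foreign compounds 4 were higher and 0 lower. GSTA4, a glutathione transferase, was at 3.33 in medium and at 6.33, 7.50, 7.64 and 6.88 with fluid (at least 2.09). CYP2S1 (at least 1.76) and the sulfotransferase SULT2B1 (at least 1.61) also had medium under log2 5. AKR1C3, a reductase of steroids and prostaglandins, was at 5.85 and at 9.19, 9.43, 9.21 and 9.41 (3.46), and at 9.92 with NaCl. AKR1C3 has close copies, which its probe set may read too.

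Chemokines of the CXCL1 to CXCL3 cluster on chromosome 4, which draw neutrophils, were lower. Of 18 NF-kB targets, cytokines and chemokines compared 4 were lower and 0 higher (median -0.24). CXCL3 was at 11.68 in medium and at 7.82, 9.00, 8.69 and 9.62 in vessels 1 to 4 (-2.90), CXCL2 at 11.96 and 9.31, 10.55, 10.48 and 11.31 (-1.54), and CXCL1 at 10.52 and 8.29, 9.21, 9.01 and 9.59 (-1.50). In all 3, vessel 1 was farthest from medium and vessel 4 nearest. NFKB1, a subunit of NF-kB, was at 6.85 in medium and at 4.79, 4.74, 4.93 and 4.99 with fluid, a difference of -1.85 or below. The NaCl array had lower values still of CXCL1 (7.49), CXCL2 (7.62) and CXCL3 (8.36, below vessels 2 to 4), so that with NaCl in place of medium these 3 were higher with fluid, by 1.54, 2.80 and 0.42. PTGS2, the inducible cyclooxygenase, was at 6.33 in medium and at 5.22, 7.33, 7.30 and 8.03, with vessel 1 below and vessels 2 to 4 above, and was not called.

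NF-kB is known to act at the start of these genes. The letters GGNNTTTCC, searched on both strands, were found in the RefSeq windows of all 4 called genes of the list, in 11.7% of lower members, 5% of higher members, 6.98% of the genes compared and 6.26% of all genes of the table. The 250 bases before the start are shown for CXCL1 (chr4:73869143-73869392, plus strand) and CXCL3 (chr4:74038690-74038939, minus strand; both GRCh38.p14), to set the members of the cluster with the smallest and the largest difference side by side, with the matches, from -78 to -70 and from -53 to -45 in each, in capitals.
CXCL1: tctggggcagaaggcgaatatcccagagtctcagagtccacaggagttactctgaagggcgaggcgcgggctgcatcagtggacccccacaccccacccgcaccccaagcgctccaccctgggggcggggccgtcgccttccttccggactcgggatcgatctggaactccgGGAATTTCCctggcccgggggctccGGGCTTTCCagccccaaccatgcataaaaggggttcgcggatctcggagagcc
CXCL3: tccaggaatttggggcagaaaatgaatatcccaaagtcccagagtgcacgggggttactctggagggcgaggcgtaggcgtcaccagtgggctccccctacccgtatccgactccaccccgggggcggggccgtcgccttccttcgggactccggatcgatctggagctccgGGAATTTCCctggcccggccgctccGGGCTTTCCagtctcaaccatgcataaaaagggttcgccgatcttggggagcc
The sequences are alike over most of their length and these genes are paralogs, so their matches are not independent of each other and a probe set may read more than 1 of them. Genes of the list that were not called were not counted apart, and a match shows no binding.

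Of the genes of the response to low oxygen that were bright enough to be compared, nearly all stood above medium. Of 15 hypoxia response genes 7 were higher, 0 lower and 8 not called (median 0.79, against 0.15 on the NaCl array). Differences were above 0 in 14 and below in 1, against 3856 of 7820 above 0 over all genes compared. NDRG1, a stress protein, was at 8.74 in medium and at 10.19, 11.42, 12.01 and 11.64 with fluid (2.58). SLC2A3, the glucose transporter GLUT3, was at 7.92 and at 9.92, 11.14, 11.01 and 10.58 (2.74), and ANKRD37 at 6.78 and at 8.11, 9.16, 10.19 and 9.44 (2.45). P4HA1, a prolyl hydroxylase of collagen, was at 9.53 and at 9.62, 10.85, 11.40 and 11.17 (1.23), so that vessel 1 nearly reached medium. Vessel 1 was lowest and vessel 3 highest in NDRG1, ANKRD37 and P4HA1. Of 18 genes of glucose uptake and glycolysis 4 were higher, 0 lower and 14 not called, with 6 below 0 (median 0.19). The higher ones included the enolase ENO2 (at least 2.88) and the hexokinase HK1 (1.08).

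CPT1A, which brings fatty acids into mitochondria for oxidation, was at 5.96 in medium and at 9.14, 9.08, 8.86 and 8.93 with fluid (9.00 ± 0.13, SD, n = 4), a difference of 3.04. The NaCl array (5.80) was near medium, and butyrate (8.95) lay within the range of the 4 fluids. It was the single higher gene of 13 for fatty acid oxidation, and ACSL5, which activates long-chain fatty acids, was the single lower (-1.20). HMOX1, the haem oxygenase, was at 6.66 and at 8.19, 9.53, 9.17 and 9.19 (2.36), 1 of 3 higher genes among 16 of the NRF2 antioxidant response (median 0.31, 0 lower).

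Some epithelial surface and junction genes were higher. Only 4 of 33 enterocyte and brush border genes on the array were bright enough to be compared, and 3 of these were higher: CEACAM6, the keratin KRT20 and the peptidase DPP4. KRT20 was at 10.48 in medium and at 11.74, 12.18, 12.11 and 11.92 with fluid (1.51). DPP4 was at 5.38 and at 6.60, 6.69, 6.80 and 6.85 (1.36). Among 16 tight junction and adhesion genes CLDN3 (1.42), the scaffold TJP3 (1.63) and cingulin, CGN (1.40), were higher. CLDN2, the claudin that forms a pore for cations, was lower, at 8.46 in medium and 6.55, 4.94, 5.53 and 4.89 with fluid (-2.98, with vessels 2 and 4 under log2 5). Of 14 keratins and epidermal-type genes 5 were higher and 0 lower (median 0.61), with SPRR1A, a protein of the cornified envelope, at 2.07 and at 5.30, 7.25, 6.95 and 7.28 (at least 1.70).

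Signal and clock genes were higher in smaller numbers. Of 19 immediate-early genes 4 were higher and 0 lower (median 0.66), with FOS, a transcription factor induced by growth signals, at 4.50 in medium and 5.18, 7.32, 7.05 and 7.35 with fluid (at least 1.73). Of 9 clock genes 4 were higher and 0 lower (median 0.84), with DBP, a transcription factor of the clock output, at 4.68 and at 7.64, 8.84, 8.86 and 8.68 (at least 3.51). Vessel 1 was lowest in both. Of 10 interferon-stimulated genes 5 were higher and 0 lower (median 0.92, against 0.39 on the NaCl array), with the exonuclease ISG20 at 5.01 and at 8.22, 9.20, 9.05 and 9.39 (3.96) and IFI6, a mitochondrial protein, at 7.34 and at 9.71, 10.41, 10.20 and 9.87 (2.71). Other members of that list, the RNA sensor RIGI (1.11) and the transcription factor IRF7 (1.02), were higher with NaCl than with any 0% fluid, at 9.22 and 8.84. The list does not hold every gene that interferon can induce. PSMB8, PSMB10, APOL6, PARP14 and NMI are such genes outside it, and they were lower members.

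The other large differences below medium were spread over genes of many kinds. The 5 lower members at -3 or beyond all had fluid arrays under log2 5, and are named after their values were seen. CDC25A, the phosphatase that lets cells into S phase, was at 8.21 in medium and at 6.36, 4.32, 4.63 and 4.50 with fluid (-3.26). CRTAM, an adhesion molecule of the immunoglobulin family, was at 8.50 and at 5.16 in vessel 1, with vessels 2 to 4 under 5, and at 8.39 with NaCl. In the other three all 4 fluids were under 5: the apolipoprotein L gene APOL6 (7.37 in medium, a difference of -2.37 or below), the antisense RNA KLRK1-AS1 (6.94, -1.94 or below) and PSMB10, a subunit of the immunoproteasome (7.05, -2.05 or below). Medium lay above every fluid array in all 5, which the rule requires. SERPINH1, a chaperone of collagen, was at 8.94 in medium and at 6.58, 5.79, 6.15 and 5.66 with fluid (-2.90), and 9.14 with NaCl. BTC, betacellulin, a ligand of the EGF receptor, was at 8.50 and at 5.94, 5.67, 5.62 and 5.55 (-2.80), and 5.43 with NaCl. With all arrays at log2 5 or more, IL20RA, a subunit of the receptor for IL-20 (-2.25), TRMT1, a transfer RNA methyltransferase (-2.20), LMNB1, lamin B1 of the nuclear envelope (-2.16), XRCC2, a protein of DNA repair (-2.11), PSMB8, a partner of PSMB10 in that complex (-1.95), and FAR2, a fatty acyl reductase (-1.93), were also among the 12 largest. In XRCC2 vessel 1 was farthest from medium (5.06 against 7.75).

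Arrays that took no part in choosing the members gave their direction outside the 5. The 1% and 2% fluids were set against the NaCl array by the same rule of size. With 1% fluid, 377 of the 608 higher members were higher than NaCl (62.0%, against 12.5% of all genes compared there) and 13 were lower, and 183 of the 375 lower members were lower (48.8%, against 11%) while 6 were higher. With 2% fluid 384 were higher (63.2%, against 13%) and 213 were lower (56.8%, against 13.8%), with 12 and 5 the opposite way. The median difference from NaCl was 1.36 and 1.42 in higher members and -1.08 and -1.31 in lower ones, against -0.04 and -0.05 over all genes compared. NaCl is a treatment of its own, and a difference from it can come from either side. LGALS1 (5.10 and 5.12) and CPT1A (3.17 and 3.17) were far above NaCl with 1% and 2% fluid, and LMNB1 (-1.67 and -2.0) and NOP16 (-1.46 and -1.73) below. CCL26, an eotaxin that draws eosinophils, did not keep its direction. It was higher with 0% fluid (7.92, 9.01, 8.80 and 9.03) than in medium (5.56), and at 13.01 with NaCl.

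**Figure D4:**
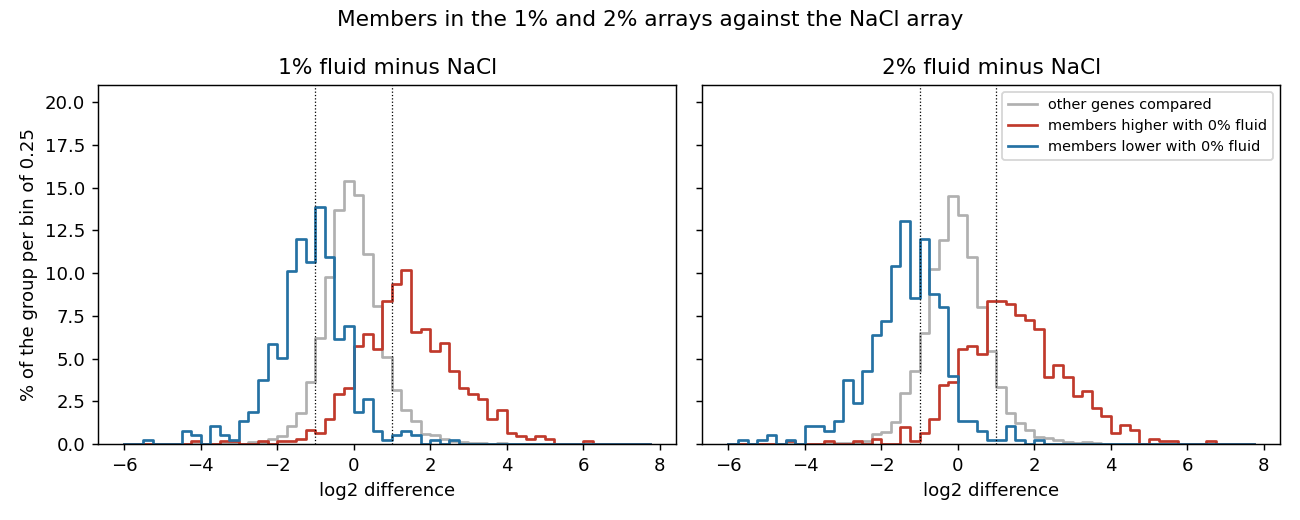
Percentage of genes per bin of 0.25 along the log2 difference of the mean of 4 arrays of 1% fluid (left) or 2% fluid (right) from the NaCl array, for members higher (red) and lower (blue) with 0% fluid and for the other genes compared (grey); dotted lines mark -1 and 1. The red and blue curves lie on opposite sides of the grey one, with medians of 1.36 and -1.08 for 1% and 1.42 and -1.31 for 2%.

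Butyrate at 5 mM lay beyond the fluids for most members. In 343 of the 608 higher members the butyrate array was above all 4 arrays of 0% fluid, in 135 within their range and in 130 on the medium side. In 261 of the 375 lower members it was below all 4, in 98 within the range and in 16 on the medium side. These positions were not counted over all genes compared, so they do not set the members apart. Against NaCl, 373 of the higher members were higher with butyrate (61.3%, against 15.9% of all genes compared there) and 222 of the lower were lower (59.2%, against 17%). Members on the medium side included CYP1A1 and CYP1B1, CDA (5.94 with butyrate, 7.22 to 8.52 with fluid), CCL26 (6.77, 7.92 to 9.03) and SLC7A7, a transporter of basic amino acids (5.07, 8.22 to 8.88). SULT2B1 (4.74, 6.33 to 6.97), CRABP2, which carries retinoic acid (7.24, 8.56 to 9.01), and S100P, a calcium-binding protein (10.33, 12.35 to 13.42), were of the same kind. For SLC7A7 and S100P butyrate was also below medium.

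NaCl lay on the medium side of the 4 fluids in 468 of 608 higher and 250 of 375 lower members. Beyond the fluids it lay in 70 and 37. These counts, like those for butyrate, share the fluid arrays with the rule, have no share over all genes beside them and are a description. The median level of the higher members was 6.22 in medium, 6.87 with NaCl, 7.83 with 0% fluid and 8.27 with butyrate. That of the lower members was 8.14, 7.70, 6.81 and 6.14 in the same order.

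Along the simulator the fluid of vessel 1 was nearest to medium. The median level of higher members was 7.59 in vessel 1 and 8.01, 7.99 and 7.94 in vessels 2 to 4, and that of lower members 7.16 against 6.65, 6.75 and 6.63. The vessels were then tested with limma, by a fit with concentration and vessel as factors. Nothing in the labels says that the arrays came from separate cultures, so p-values measure only the spread between these arrays, which may be technical. Over all 12 arrays of fluid, vessel 1 was higher than the mean of vessels 2 to 4 in 19.3% of 8737 genes tested and lower in 15.4% at an adjusted p under 0.05. Of the 608 higher members 331 were lower in vessel 1 and 15 higher. Since the arrays of 0% fluid chose the members, the fit was repeated on the 8 arrays of 1% and 2% fluid alone with no filter on low values, an alternative added after seeing the data. There 278 of 608 higher members were lower in vessel 1 (6.75% of all 19775 genes were) and 32 were higher. Of the 375 lower members 238 were higher in vessel 1 (9.45% of all genes were) and 0 were lower. These shares over all genes include genes too dim to be members. In the planned fit of the 8 arrays, with the filter on low values, 1347 of 8602 genes were lower in vessel 1 and 1780 higher. There 311 of 607 higher members were lower and 38 higher, and 197 of 302 lower members were higher and 1 lower. Without vessel 1 of 1% fluid the count over all genes in the fit of 12 arrays went from 3035 to 1646, and without vessel 1 of 2% fluid to 1884, while 236 and 278 of the higher members still passed.

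**Figure D5:**
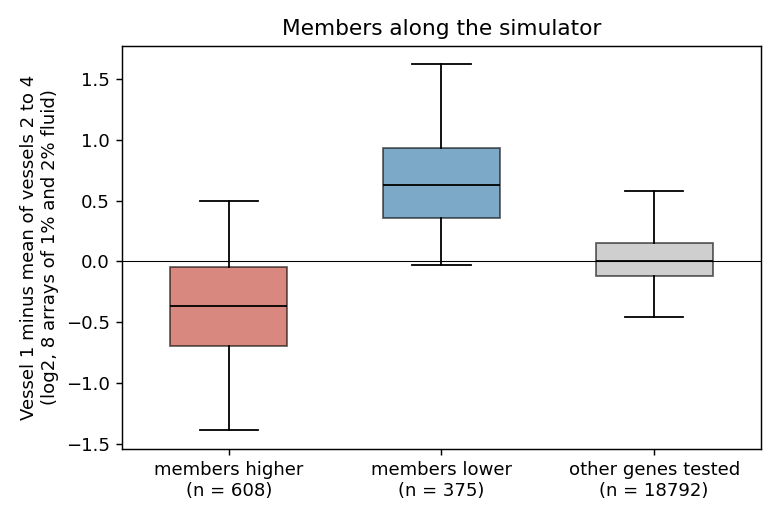
Boxes show the log2 difference between vessel 1 and the mean of vessels 2 to 4 in the 8 arrays of 1% and 2% fluid, for 608 higher members, 375 lower members and the 18792 other genes; lines mark the median, boxes the quartiles, whiskers the 5th to 95th percentiles. No filter on low values was used, so the other genes include those too dim to be members. The medians are -0.36, 0.63 and 0.00.

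By group, in the 8 arrays with no filter, all 8 called mitosis genes were higher in vessel 1 (median 1.41). So were 10 of 22 replication genes (0.48) and 6 of 8 ribosome biogenesis genes (0.55). All 7 called genes of the deacetylase inhibitor list and all 5 histone genes were lower in vessel 1 (medians -0.92 and -0.99), with H4C8 at -3.01 ± 0.10 (SE). H2BC21 is in both of these lists. CYP1A1 (-0.03 ± 0.23, SE) and TIPARP (-0.02 ± 0.09, SE) did not pass, nor did LGALS1 (-0.19 ± 0.12, SE), which does not show that the vessels were alike for these genes. CYP1B1, the remaining higher member of the aryl hydrocarbon receptor list, was lower in vessel 1 (-0.44 ± 0.10, SE). SLC7A7 (1.58 ± 0.20, SE), CRABP2 (0.94 ± 0.16, SE), SULT2B1 (0.45 ± 0.09, SE) and SERPINA1, the protease inhibitor antitrypsin (0.33 ± 0.09, SE), were higher in vessel 1, against the direction of most higher members. CXCL3 was higher in vessel 1 of 1% and 2% fluid by 2.72 ± 0.18 (SE), while in 0% fluid it was lowest there. The ACTB gap between 3′ and 5′ probe sets was highest in vessel 1 at each concentration (0.73, 0.92 and 0.62 against 0.37 to 0.64 elsewhere). The GAPDH gap in vessel 1 was -0.06, 0.04 and -0.11, against -0.11 to -0.06 elsewhere, and was lowest there with 2% fluid. The part of RNA quality was not tested.

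No member passed between 2% and 1% fluid. By limma 0 of 8737 genes (0%) passed between these concentrations at an adjusted p under 0.05, and thus 0 members. This does not show that the concentrations were alike. At an unadjusted p under 0.05 there were 1608 genes, of which 145 were higher members and 110 were among the 333 lower members tested. The smallest adjusted p among members was 0.0739. Means ran from 0% through 1% to 2% away from medium in 293 of 608 higher and 273 of 375 lower members, and toward medium in 50 and 4, but concentration and simulation cannot be told apart and the 0% arrays are those of the rule. The share over all genes compared was not computed, so these counts do not set the members apart. EPPK1 had means of 9.57, 10.04 and 10.61 and BTC of 5.70, 4.31 and 3.87, while CPT1A stayed at 9.00, 8.97 and 8.97 and CYP1A1 had 9.08, 8.92 and 8.20.

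Other probe sets of the same genes pointed the same way. At log2 6 or more there were 237 further probe sets for 175 higher members, of which 233 had the same sign and 179 passed a difference of 1, and 120 for 94 lower members, of which 120 had the same sign and 96 passed. No further probe set passed 1 in the opposite direction. These probe sets were read on the same fluid and medium arrays that chose the members, so they are no separate test. The share over genes that were not members was not computed. The balance of higher to lower depended on the scaling. Over all 19775 genes the median of the fluid arrays was 0.17 above that of medium, and with each array centred on its median the members became 456 higher and 642 lower, so that 41.5% of called genes were higher in place of 61.9%. Over the 6470 genes at log2 6 or more in all 15 arrays this shift was -0.01, and centred on these the count was 614 higher and 355 lower (63.4% higher).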

How the data were processed

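Total RNA of 15 samples was labelled with biotin for Affymetrix arrays, 1 array a sample, per the labels. The authors deposited 1 table of 54675 probe sets, background-corrected, normalized and summarized with GCRMA per the submitters' processing notes. The deposited values, from 0.173 to 14.5, were taken as log2, since no source states their scale. Scanner settings and chip description are not given in the sources used here.

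Probe sets were named by the platform's annotation: 41097 had 1 symbol, 1801 had several and 11777 had none. Where several probe sets shared a symbol, the one of highest mean value was kept, which left 19775 genes. With a single medium array the comparison used a rule of size (log2 of at least 6 on the brighter side, difference of at least 1, same sign in 4 vessels) and no test. The fluids were compared with limma 3.58.1 in R 4.3.3, with concentration and vessel as factors (6 residual degrees of freedom), over genes at log2 5 or more in at least 4 of 12 arrays. P-values were two-sided, adjusted by Benjamini-Hochberg, with a threshold of 0.05. On simulated data for 8737 genes, 100% of 200 genes changed by 1 were recovered, for the concentrations and for the vessels. The simulated noise had the same SD in every gene, unlike that of the arrays, so the recovery of real genes is unknown. Vessel numbers pair the fluid arrays by position in the simulator; medium has no partner.

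The members and the 42 gene lists were chosen with earlier results of these data known. Lists can share genes. H2BC21 is in the histone and deacetylase inhibitor lists, and CDKN1A and CDKN1C are in the inhibitor and growth arrest lists. Genes were named by rule: the 12 members farthest above and below medium with all arrays at log2 5 or more, the 8 largest bounds, in every list the members that differed most (up to 5), and CDKN1A, CPT1A, MYC, CCND1 and PTGS2. Others, among them MCM2, MCM3, MCM6, MCM7, PCNA, RRM1, RRM2 and AHR, were named after their values were seen, as members of a list described. Promoter letters, chosen after the values were seen, were searched in RefSeq windows with Python 3.11.15. Alternatives covered the brightness limit, the smallest difference counted, the probe set used, scaling, the control array, a limma fit that lends the fluids' spread to medium, the replicate block and leaving out each array in turn.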

Additional observations from a re-analysis of the deposited data

Results flagged for a closer look

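In 18 of 142 genes named here, 1 of the 4 arrays of 0% fluid stood apart from the other 3, with a gap to its neighbour above Dixon's 95% critical value relative to the range of the 4. Chance flags about 1 in 20 such groups, but these arrays chose the members and most of the genes were named for their values on them, so the number is a description and tests nothing. In 16 of the 18 it was vessel 1. It was nearest to medium with the lowest value in CDKN1A (9.84), CDKN1C (8.27), DBP (7.64), FOS (5.18), H2BC21 (5.68), SAT1 (12.99) and SPRR1A (5.30). The value of vessel 1 was the highest, again nearest to medium, in the lower members CDC25A (6.36), PSMB10 (4.54), CENPE (6.39), MCM2 (9.67), TYMS (11.54) and LOC105379499 (7.97), an uncharacterised gene, and in PCNA (11.85), which was not called. LY96, a partner of the receptor for bacterial endotoxin, was highest in vessel 1 as a higher member (6.51), so there vessel 1 was farthest from medium (4.78). In APOL6, a lower member with all 4 fluids under log2 5, vessel 1 was lowest (2.43). In CEACAM6 vessel 2 was highest (8.0), and in the keratin KRT8, which was not called, vessel 4 was lowest (13.23).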

How the results depend on the processing

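The rule of size set the counts. Against 608 higher and 375 lower members, a smallest difference of 1.5 gave 281 and 104, one of 2 gave 164 and 31, no brightness limit gave 969 higher, averaging probe sets per gene 364 higher, every probe set on its own 939 and 620, centring on the array median 642 lower, and NaCl as the control 790 lower. Of the members, 339 higher and 138 lower were called the same way with NaCl as the control, and 15 and 9 the opposite way. A limma fit that lent the spread of the fluids to medium gave 604 and 366, but the members were chosen by this same difference, so this is no test of it. Leaving out each array of 0% fluid gave 577 to 682 higher and 340 to 480 lower. The counts against NaCl ran from 361 to 402 and 175 to 221 with 1% fluid, and from 375 to 396 and 205 to 233 with 2%. For vessel 1 the ranges were 1646 to 3683 genes, 236 to 332 higher members and 175 to 249 lower members. In the 8 arrays of 1% and 2% fluid with no replicate block for concentration, 1978 genes and 154 lower members passed there. Between 2% and 1%, 0 genes passed with and without the replicate block (1608 and 697 at an unadjusted p under 0.05), and 0 to 0 with each array left out. No paired analysis was possible for fluid against medium because medium has no vessel. With NaCl as the control the sign turned in AKR1C3 (-0.61), AURKB (0.22), BAMBI (-1.18), BTC (0.26), CCL26 (-4.32), CDC6 (0.69), CDKN1C (-0.52), CXCL1 (1.54), CXCL2 (2.80), CXCL3 (0.42), DUSP10 (-0.40), EGLN3 (-0.21), GINS1 (0.39), H1-2 (-0.042), H2BC21 (-0.0097), H2BC5 (-0.25), IRF7 (-0.29), OAZ2 (-0.30), POLE2 (0.59), RIGI (-1.46), S100A4 (-3.04), SCIN (-1.50) and TGFB1 (-0.37), and in the medians of the lists for amino acid transporters (0.14), histones (-0.0097), YAP and TGF-beta targets (-0.15), hypertonic stress (-0.39), polyamines (-0.050) and ion transport (0.059). With centring it turned for fatty acid synthesis (-0.11) and iron handling (-0.0058). Among genes only members were counted as turned. Lists were counted only where the median against medium exceeded its SD over the vessels and moved by at least that SD. Lists with a smaller median, among them cholesterol synthesis (0.07, SD 0.16), could turn without being named. The control array is part of each such difference. Beyond these, each other cause was not tested.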

Other observations

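Lists not described above held few members. Of 16 cholesterol synthesis genes 1 was higher, INSIG1, which holds back sterol synthesis (1.45), and 1 lower, the thiolase ACAT2 (-1.24). Of 9 fatty acid synthesis genes 2 were higher, ACSS2, which activates acetate (1.15), and the regulator SREBF1 (1.06). Among 13 amino acid and peptide transporters SLC7A7 (1.71) and SLC36A1 (1.46) were higher and SLC43A1 was lower (-1.16). Of 18 genes of the ATF4 amino acid response CTH was higher (1.13) and SHMT2 lower (-1.14), and of 12 Wnt and stem cell genes BAMBI was higher (1.23) and ASCL2 lower (-1.40). Of 19 ERK feedback genes and EGF family ligands the phosphatases DUSP10 (1.21) and DUSP1 (1.15) were higher and BTC was lower. Of 16 YAP and TGF-beta targets CCN2 (2.03) and TGFB1 (1.53) were higher. Of 9 hypertonic stress genes AQP3, CCL26 and S100A4 (1.82) were higher. The lists of 22 oxidative phosphorylation and TCA cycle genes (IDH2, 1.45), 18 endoplasmic reticulum chaperones (EDEM1, 1.12) and 8 metallothioneins and zinc genes (SLC30A1, 1.15) held 1 higher member each and 0 lower. The 11 heat shock genes, 5 ion transport genes and 4 goblet cell genes compared held 0 members. Among 5 microbial pattern and antimicrobial genes IL1RN, which blocks the IL-1 receptor (2.80), and LY96 (at least 1.09) were higher, and OAZ2 (1.08), which restrains polyamine synthesis, was higher with SAT1 and SMOX.

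The E-box letters CACGTG, searched on both strands in the same RefSeq windows, were found in 14% of lower members, 9.2% of higher members and 10.8% of the genes compared.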
